A study of Mus musculus with 12 samples.

Results

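The genes followed through the histone peaks of mouse intestinal crypts and villi are 10 genes of the absorptive enterocyte. They comprise 3 disaccharidase genes (Sis, Lct, Treh), 2 membrane peptidase genes (Anpep, Dpp4), the alkaline phosphatase gene Alpi, 2 genes of structural proteins (Vil1, Krt20) and 2 genes of adenosine turnover (Ada, Nt5e). The 10 were taken by name from 21853 protein-coding genes of the GENCODE M21 annotation of GRCm38, and every peak that touched a gene body or the 5 kb on either side of it was kept. The rule used no measured value of the lists. All 10 genes were matched, and each is described.

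The brush border is the layer of microvilli on the luminal face of enterocytes. It carries the enzymes that finish the digestion of sugars, peptides and phosphate esters, and it is built as cells leave the crypts and move up the villi. Trimethylation of histone H3 at lysine 4 (H3K4me3) is a mark of promoters in use, and monomethylation of the same residue (H3K4me1) is found at enhancers and on the flanks of promoters. H3K27me3 is laid down by Polycomb complexes at silent or lowly used promoters, whereas H3K9me3 is a mark of heterochromatin.

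Chromatin immunoprecipitation followed by sequencing was done on intestinal crypts and villi of the mouse in a study of histone H3 tail cleavage during differentiation. Each immunoprecipitation had 1 library per compartment, and each contained 5% of Drosophila S2 chromatin as a spike-in. According to the methods, villi were scraped from the tissue and crypts were then released with EDTA, while strain, genotype, age, sex and the number of animals behind a library are not given in the sources used here. The 8 peak lists held 16489 peaks for H3K4me3 in crypts and 16977 in villi, 54642 and 55341 for H3K4me1, 7611 and 13797 for H3K27me3, and 2126 and 2089 for H3K9me3. The lists hold positions and a score but no read counts, so the depth of each library is unknown. Peaks were called without the spike-in. With spike-in normalization, the paper reported strongly reduced intensity in villi for the marks near the N-terminus, H3K4me3 and H3K4me1 among them, but not for H3K27me3. It reads this as loss of the histone tail by cleavage. The peak widths used here do not measure that intensity, so a wider peak in villi is not a higher normalized signal. A peak can become wider through more of the mark per cell, through more cells that carry it, or through a deeper library, and in bulk tissue these cannot be told apart. With 1 library per group no difference between crypts and villi was tested, and the same value over all protein-coding genes is given as the background.

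The bases just upstream of the start site are shown for 5 of the members that hold short words of the kind bound by factors of enterocytes. Dpp4 holds such words as well but is not shown. For Lct and Treh, the upstream edge of H3K4me3 also lay within the bases shown in both compartments. The sequences are RefSeq promoters on GRCm38.p6, each the 250 bases before the start site, written 5′ to 3′ on the strand of the gene. Capitals mark matches on either strand to words of 5 kinds of site. For CDX factors, homeobox regulators of the intestine, the word TTTATG was searched. A second word for these same homeobox regulators was TTTATT. For the nuclear receptor HNF4 the word was CAAAGTCC. GATA factors, zinc finger regulators of gut genes, were given the word AGATAA. The TATA box, a core promoter element close to the start of many tissue genes, was searched as TATAAA. On the opposite strand this word begins with the same 5 letters as both CDX words. A longer HNF1 consensus was searched as well. The sequence of Sis is from chr3:72967864-72968113 on the minus strand, Lct from chr1:128328319-128328568 on the minus strand, Treh from chr9:44672983-44673232 on the plus strand, Alpi from chr1:87101607-87101856 on the minus strand, and Krt20 from chr11:99438154-99438403 on the minus strand.
Sis: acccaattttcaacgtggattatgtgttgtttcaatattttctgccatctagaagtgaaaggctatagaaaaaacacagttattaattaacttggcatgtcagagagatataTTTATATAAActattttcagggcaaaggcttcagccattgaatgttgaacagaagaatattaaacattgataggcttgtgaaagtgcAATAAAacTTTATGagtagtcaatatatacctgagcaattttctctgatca
Lct: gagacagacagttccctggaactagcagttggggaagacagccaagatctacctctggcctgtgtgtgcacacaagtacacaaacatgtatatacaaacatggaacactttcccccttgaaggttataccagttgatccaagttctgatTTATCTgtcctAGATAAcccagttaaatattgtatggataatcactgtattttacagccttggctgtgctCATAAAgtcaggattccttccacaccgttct
Treh: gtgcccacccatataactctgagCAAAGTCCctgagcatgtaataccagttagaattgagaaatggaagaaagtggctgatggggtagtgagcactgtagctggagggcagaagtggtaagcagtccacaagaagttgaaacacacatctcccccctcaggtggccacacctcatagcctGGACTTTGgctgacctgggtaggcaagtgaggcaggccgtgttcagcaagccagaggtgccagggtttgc
Alpi: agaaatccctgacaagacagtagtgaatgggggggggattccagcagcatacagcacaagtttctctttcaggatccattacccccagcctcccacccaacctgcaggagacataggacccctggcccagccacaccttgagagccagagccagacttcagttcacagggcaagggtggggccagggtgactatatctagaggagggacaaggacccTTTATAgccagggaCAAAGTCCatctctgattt
Krt20: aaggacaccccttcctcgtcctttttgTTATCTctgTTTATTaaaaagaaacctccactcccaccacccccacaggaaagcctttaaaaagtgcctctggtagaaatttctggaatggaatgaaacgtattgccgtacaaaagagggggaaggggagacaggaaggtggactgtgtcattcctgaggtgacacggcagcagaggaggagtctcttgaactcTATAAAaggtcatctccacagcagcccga

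A CDX word was found in 3 of the 10 members, Sis, Lct and Krt20, and in 25.5% of 32851 RefSeq promoters of the same length. In Sis the words lay 51 to 46 bases and 43 to 38 bases before the start, and in Lct the word lay 31 to 26 bases before it. In Krt20 it lay further out, at 214 to 209 bases. The HNF4 word was found in 2 members, once in Alpi, 19 to 12 bases before the start, and on both strands in Treh. The Treh matches lay 227 to 220 and 70 to 63 bases before the start. The HNF4 word was present in 1.20% of all promoters. GATA words were found in Lct, Krt20 and Dpp4, 3 of 10 against 9.99% of promoters, and TATA box words in Alpi, Sis, Krt20 and Dpp4, 4 of 10 against 12.4%. Only in Krt20 did a TATA box word lie close to the start on the strand of the gene, 29 to 24 bases before it. The Alpi word, 33 to 28 bases before the start, was on the opposite strand. The Dpp4 word lay at 227 to 222 bases. The TATA box words of Sis, on opposite strands, overlap each other and lay between 138 and 129 bases before the start. No HNF1 word was found in the 10 windows, and 0.371% of all promoters hold one. A match is a run of letters and says nothing on binding.

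The promoters of Ada, Nt5e and Anpep held none of these words, as did that of Vil1, but had the most CpG dinucleotides of the members. Their 250 bases are shown with each CG in capitals, because H3K27me3 was called near the starts of the first 2 and because H3K4me3 of Anpep lay at several starts. Ada is from chr2:163750240-163750489 on the minus strand and Anpep from chr7:79848211-79848460 on the minus strand. Nt5e, from chr9:88326947-88327196 on the plus strand, was read from the genome at the GENCODE start.
Ada: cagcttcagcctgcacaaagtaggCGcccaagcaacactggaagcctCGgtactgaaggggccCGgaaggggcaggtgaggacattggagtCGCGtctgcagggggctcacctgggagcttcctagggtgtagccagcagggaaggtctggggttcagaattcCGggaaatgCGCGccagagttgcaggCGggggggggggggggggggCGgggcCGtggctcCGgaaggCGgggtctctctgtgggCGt
Nt5e: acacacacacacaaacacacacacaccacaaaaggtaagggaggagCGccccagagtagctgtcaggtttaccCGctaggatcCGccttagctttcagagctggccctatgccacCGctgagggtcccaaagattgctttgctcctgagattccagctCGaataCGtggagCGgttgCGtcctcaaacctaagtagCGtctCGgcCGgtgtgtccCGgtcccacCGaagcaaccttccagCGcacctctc
Anpep: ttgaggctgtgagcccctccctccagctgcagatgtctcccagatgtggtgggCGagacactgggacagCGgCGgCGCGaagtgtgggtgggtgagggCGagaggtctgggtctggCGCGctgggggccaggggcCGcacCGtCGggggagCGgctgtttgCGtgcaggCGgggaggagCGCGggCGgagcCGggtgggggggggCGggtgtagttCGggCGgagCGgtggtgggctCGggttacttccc

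The CpG count was 23 in Anpep and 14 in both Ada and Nt5e, against a median of 6 over all promoters. The other 7 members held 0 to 5. GC content ran from 31.6% in Sis to 72.8% in Anpep, with a median of 52.4% over all promoters.

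All 10 members had an H3K4me3 peak in their window and within 1 kb of a start site in both compartments. The background over all protein-coding genes was 63.2% in crypts and 63.5% in villi for the windows, and 57.7% and 57.9% for the start sites. H3K4me1 was called in all 10 windows in both compartments, against 69.1% and 68.8% of all genes. It lay within 1 kb of a start site in 9 members in crypts, all but Lct, and in 8 in villi, all but Dpp4 and Krt20, against 57.9% and 56.1%. H3K27me3 was called over Ada and Nt5e alone, in both compartments, 2 of 10 beside 17.9% in crypts and 23.0% in villi, and within 1 kb of a start these were again the 2 members, beside 13.1% and 16.1%. With the top 50% of each list by score it was called over Ada alone in crypts and over Nt5e alone in villi. No H3K9me3 peak lay in any of the windows, where 3.89% and 3.11% of all genes had one. With the top 50% of each list by score, promoter H3K4me3 was called in 5 of the 10 in crypts and in 8 in villi.

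**Figure D1:**
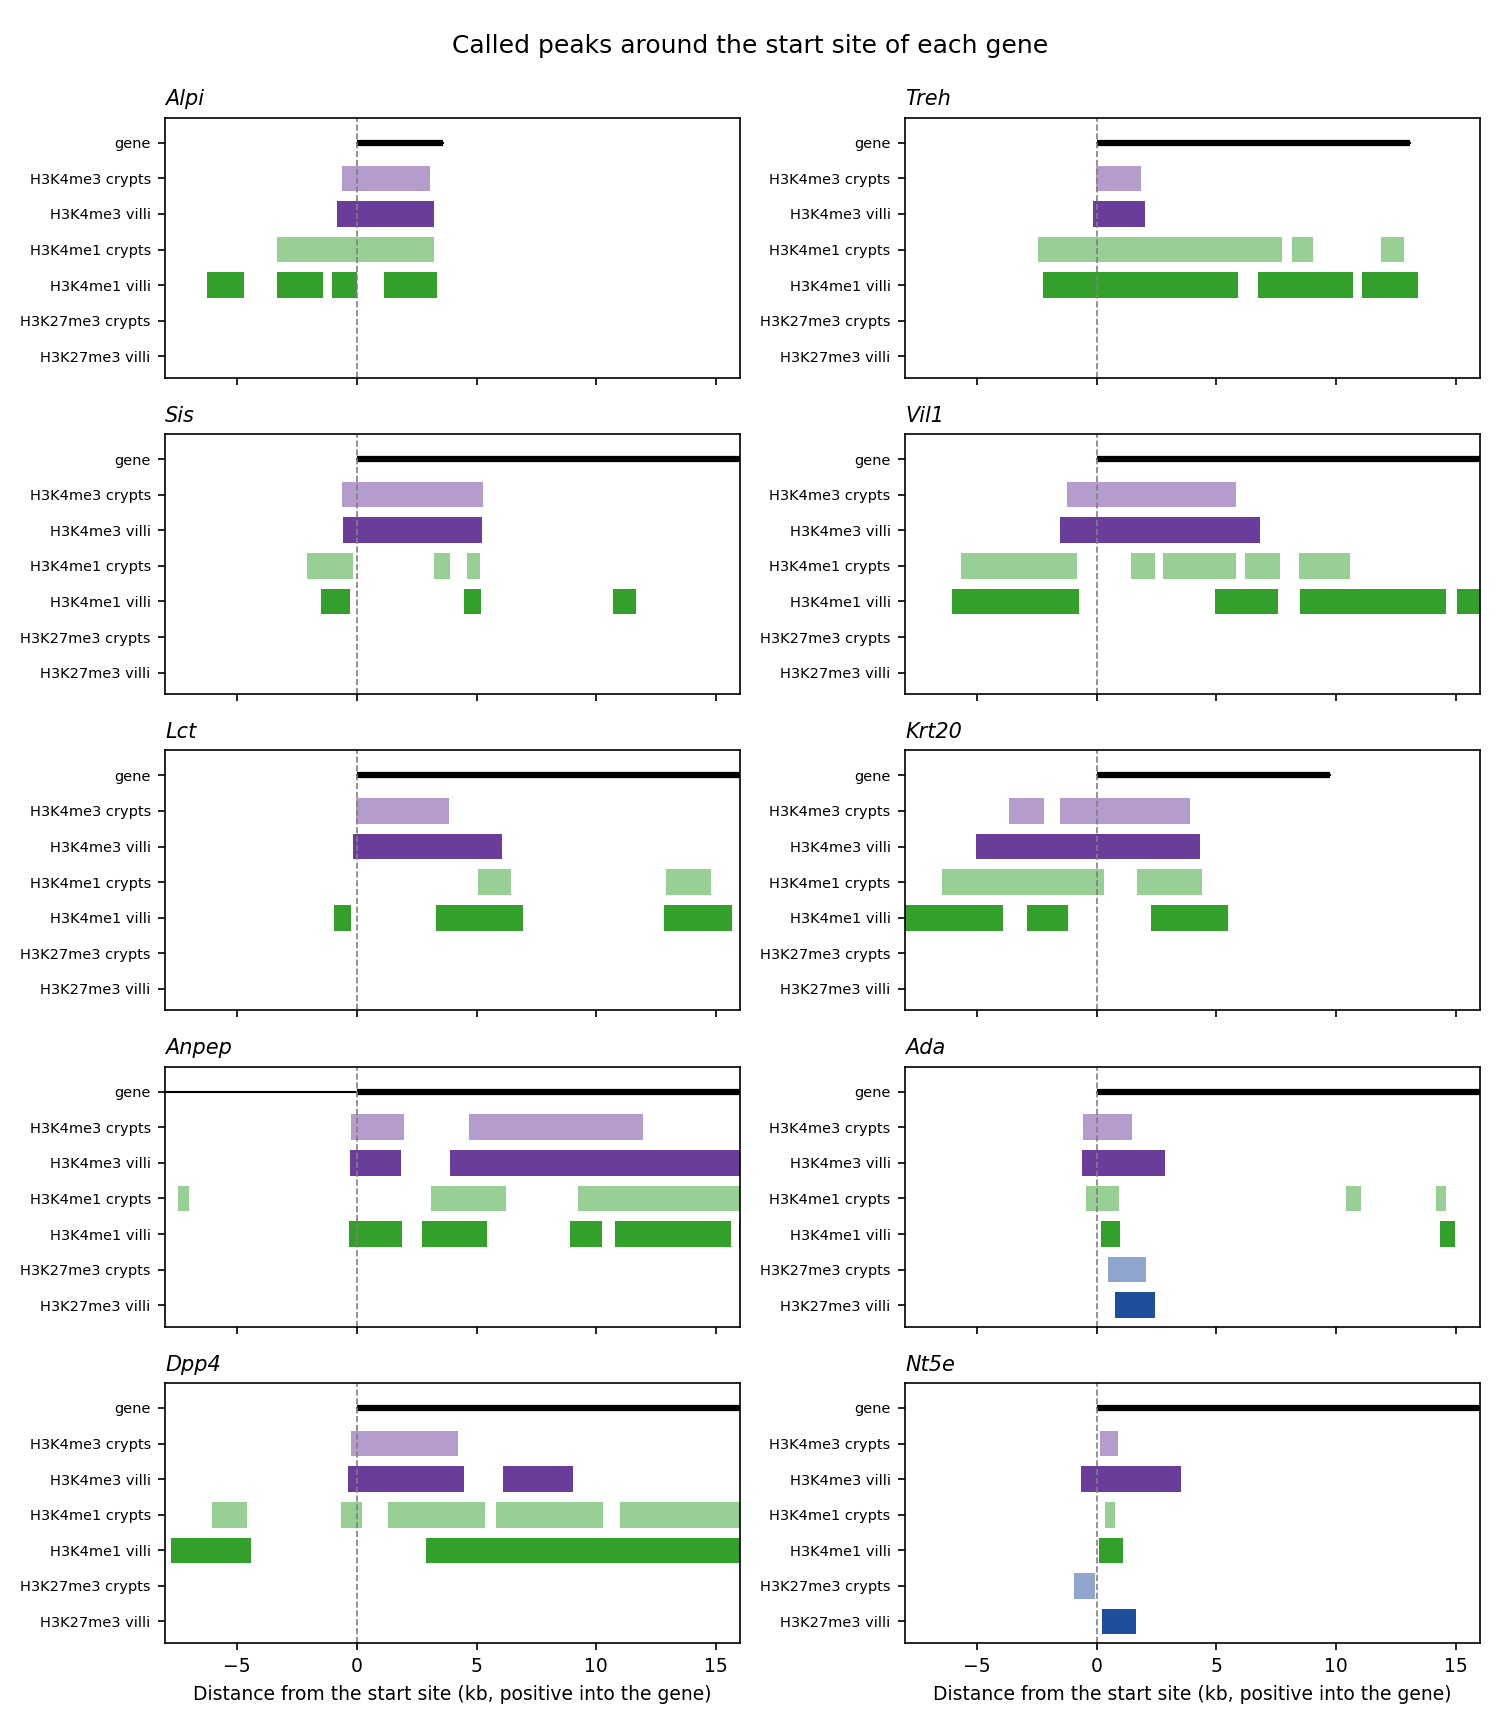
Called peaks around the main start site of each of the 10 genes, by distance from that start in kb in the direction of transcription. Light bars are peaks of crypts and dark bars peaks of villi for H3K4me3, H3K4me1 and H3K27me3, bars that reach the border run on beyond it, and H3K9me3 is not drawn because none was called. H3K4me3 covered the start of every gene in both compartments, except in crypts for Nt5e, whose peak began 128 bp inside the gene. In villi the peak ran at least 500 bp further into Lct, Vil1, Ada and Nt5e, as did the internal peak of Anpep.

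The H3K4me3 peak at the start site was wider in villi for 9 of the 10 members, all but Sis, where 40.8% of 12381 genes with a peak in both compartments had the wider one in villi. For Anpep this is the peak at an internal start, and at its principal start the peak was narrower in villi, 2238 bp in crypts against 2142 bp. The peak was at least 1.5 times wider in villi for 5 members, namely Nt5e, Anpep, Krt20, Ada and Lct, against 3.14% of all genes. None of the members was at least 1.5 times wider in crypts, against 3.61%. With the top 50% of each list by score, 5 members had a peak in both compartments, and 2 of these, Anpep and Krt20, were at least 1.5 times wider in villi. For Krt20, crypts had a second H3K4me3 peak upstream, across a gap of 665 bp. It scored above 25.0% of its list, so this filter removes it. With the 2 joined, the Krt20 ratio was 1.24. The median log2 ratio of villi to crypts was 0.46 in the members and −0.04 over all genes, with quartiles of −0.16 and 0.08. The peaks were broad in both compartments. Their median width was 4179.5 bp for the members in crypts and 5325.5 bp for the same genes in villi, beside 1963 and 1865.5 bp for all genes. In villi the edge inside the gene lay at least 500 bp further downstream in 5 members, Lct, Anpep, Vil1, Ada and Nt5e, against 6.49% of genes. The upstream edge had moved outwards by at least 500 bp in 3, Anpep, Krt20 and Nt5e, against 1.83%. For Krt20 this is counted from the peak at the start and leaves out the second crypts peak. Median gains in villi were 722 bp downstream and 163.5 bp upstream for the members, against −28 and −16 bp for all genes.

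**Figure D2:**
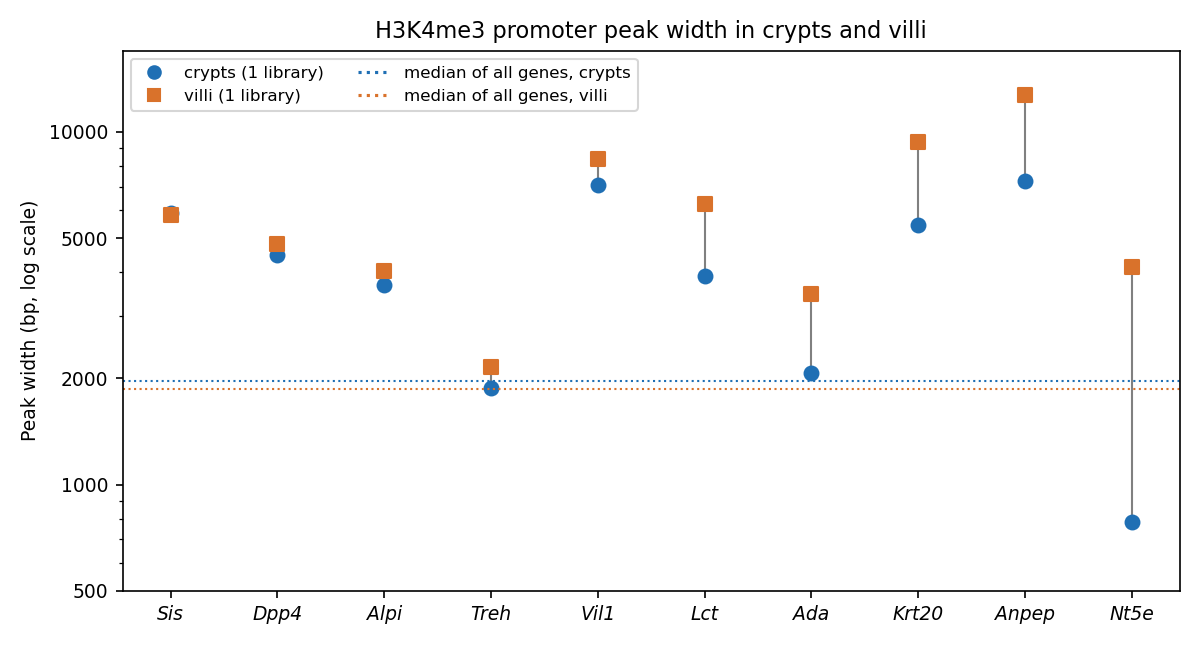
Width in bp, on a log axis, of the H3K4me3 peak at the start site of each gene in crypts and villi, ordered by the ratio of villi to crypts, with 1 library per point. Dotted lines are the medians over all genes, 1963 bp in crypts and 1865.5 bp in villi. Nt5e and Anpep were furthest apart, 781 against 4142 bp and 7258 against 12739 bp, and Sis had nearly the same width in both. The Anpep peak is the one at its internal start.

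Sis encodes sucrase-isomaltase, which splits sucrose and the branched products of starch. The gene lies at chr3:72888557-72967863 on the minus strand and has 48 exons. Its H3K4me3 peak was 5894 bp in crypts and 5829 bp in villi, a ratio of 0.989, and covered the first 3 exons in both. It was rank 146 by width among all crypts peaks and rank 246 in villi. Both edges moved by under 50 bp, by 28 and 37 bp, which makes Sis the member whose promoter peak differed least.

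Lct encodes lactase, the milk sugar enzyme, and lies at chr1:128284756-128328318 on the minus strand. Its H3K4me3 peak had 3893 bp in crypts against 6239 bp in villi, a log2 ratio of 0.68, and its rank by width was 794 and 178. The upstream edge stayed close to the start, with 48 of the 250 bases shown above under H3K4me3 in crypts and 158 in villi. The gain was on the other side, where the peak reached 3844 bp into the gene in crypts and 6080 bp in villi, within intron 1. H3K4me1 in intron 1 spanned 1405 bp in crypts and lay outside the H3K4me3 peak. In villi it was 3605 bp wide, and 44.3% of the H3K4me3 peak lay under H3K4me1 against 0% in crypts. A further H3K4me1 peak of 713 bp upstream of Lct was present in villi without a counterpart in crypts. It scored low, above 18.0% of the villi list.

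Treh encodes trehalase, the enzyme of the fungal and insect sugar trehalose, and lies at chr9:44673233-44686305 on the plus strand. Its H3K4me3 promoter peak was among the narrower ones of the members, 1881 bp in crypts against 2155 bp in villi, a ratio of 1.15. Of the 250 upstream bases, 31 lay under H3K4me3 in crypts and 143 in villi. In both compartments all of that peak lay inside 1 broad H3K4me1 peak, 10185 bp wide in crypts and 8129 bp wide in villi. H3K4me1 covered 56.1% of the Treh window in crypts and 65.7% in villi.

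Anpep encodes aminopeptidase N, which removes amino acids from the end of peptides, and lies at chr7:79821803-79861059 on the minus strand with 4 annotated coding starts. The peak at the start 79842352, inside the gene, was the widest of the members, 7258 bp in crypts and 12739 bp in villi, a ratio of 1.76. It was rank 54 by width in crypts and rank 8 of 16977 in villi. It spanned exons 2 to 11 of 21 in crypts and exons 2 to 15 in villi, so that the gain of 4708 bp was towards the end of the gene and 773 bp towards its start. The separate peak at the principal start 79848210 was nearly of equal width, 2238 bp in crypts and 2142 bp in villi. The outermost start at 79861059 had no H3K4me3 in either compartment, whereas villi had an H3K4me1 peak of 1699 bp there that crypts lacked. Villi also had 2179 bp of H3K4me1 at the principal start, over all 250 bases shown above, and none of these bases lay under H3K4me1 in crypts. Both of these villi peaks scored low, above 18.5% and 12.2% of the villi list.

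Dpp4 encodes dipeptidyl peptidase 4, a peptidase of the brush border that is also found on lymphocytes, and lies at chr2:62330073-62412231 on the minus strand. Its promoter H3K4me3 peak was 4466 bp in crypts and 4822 bp in villi, a ratio of 1.08. A second H3K4me3 peak of 2952 bp at chr2:62403186-62406137, in intron 2, was called in villi alone. It scored low, above 13.0% of the villi list. With it, the base pairs under H3K4me3 over the Dpp4 window were 1.74 times those of crypts. Around it H3K4me1 formed a single peak of 20350 bp in villi, at chr2:62389012-62409361, which was rank 17 by width of all villi H3K4me1 peaks. In crypts the same stretch held 4 peaks of 4052 to 5859 bp with gaps of 455 to 689 bp between them. The covered share of the Dpp4 window was closer, 33.6% in crypts and 39.3% in villi. At the start site itself a 918 bp H3K4me1 peak of crypts had no counterpart in villi.

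Alpi encodes intestinal alkaline phosphatase and is the shortest member, at chr1:87098002-87101606 on the minus strand. Its H3K4me3 peak covered most of the gene, all 11 exons included in part or whole, and was 3670 bp in crypts and 4040 bp in villi, a log2 ratio of 0.14. In crypts 1 H3K4me1 peak of 6575 bp overlay the whole H3K4me3 peak. In villi H3K4me1 was called as 4 peaks, of 2207 bp in the gene, 1033 bp at the start, and 1958 and 1513 bp upstream, which left 72.4% of the H3K4me3 peak under H3K4me1. The 1513 bp peak overlapped a crypts peak of 1206 bp that began 5072 bp upstream of Alpi, just outside the window. The 250 bases shown above lay under both marks in both compartments. Akp3, a related phosphatase gene 23367 bp away, had no H3K4me3 peak at its start in crypts and 830 bp in villi, while H3K27me3 covered 3009 bp of its window in crypts and 3512 bp in villi.

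Vil1 encodes villin, which bundles the actin filaments of microvilli, and lies at chr1:74409376-74435559 on the plus strand. Its H3K4me3 peak was broad in both compartments, 7085 bp and rank 61 in crypts and 8368 bp and rank 47 in villi, a ratio of 1.18. By score within its list it was in the top 9.49% in crypts and the top 0.607% in villi. The downstream edge reached 1015 bp further in villi. H3K4me1 covered 54.0% of the Vil1 window in crypts and 71.5% in villi, the highest share of the members in villi. The villi peaks included 6084 bp over exons 4 to 12, where crypts had 2156 bp over exons 4 to 6, and 2372 bp over exons 13 and 14 without a counterpart in crypts.

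Krt20 encodes keratin 20, an intermediate filament protein of mature enterocytes, and lies at chr11:99428403-99438150 on the minus strand. Its H3K4me3 peak was 5437 bp in crypts and 9376 bp in villi, a ratio of 1.72, and its rank by width was 212 in crypts and 27 in villi. The gain was upstream, 3510 bp against 429 bp downstream. Crypts had a second H3K4me3 peak there of 1451 bp, separated by a gap of 665 bp. With the pair joined the crypts width was 7553 bp and the ratio 1.24. H3K4me1 also differed at the start. In crypts a 6785 bp peak covered the start and all of the upstream bases shown above, and in villi H3K4me1 was called as peaks of 1708 and 6470 bp further upstream, with none of those 250 bases covered.

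Ada encodes adenosine deaminase, which turns adenosine into inosine, and lies at chr2:163726584-163750239 on the minus strand. Its H3K4me3 peak was 2067 bp in crypts and 3467 bp in villi, a ratio of 1.68, and the rank by width was 5249 and 1358. The upstream edge moved by 37 bp and the downstream edge by 1363 bp into intron 1. The H3K4me1 peak next to the start went the other way, with widths of 1390 and 794 bp. It covered all 250 upstream bases in crypts and none in villi. Ada also carried H3K27me3 in intron 1, at chr2:163748183-163749759 in crypts and chr2:163747807-163749479 in villi. These peaks were 1577 and 1673 bp wide and shared 1297 bp. In crypts 63.9% of the H3K27me3 peak lay under H3K4me3, and in villi 100%.

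Nt5e encodes CD73, the cell surface nucleotidase that releases adenosine from AMP, and lies at chr9:88327197-88372092 on the plus strand. It showed the largest ratio of the members, with an H3K4me3 peak of 781 bp in crypts that compared with 4142 bp in villi, 5.30 times wider. Of all genes with a peak in both compartments, 0.0565% had a ratio this high or higher. The crypts peak was weak, above 17.5% of its list by score and rank 13551 by width, and it lay inside the gene without touching the 250 upstream bases. The villi peak covered all 250 of them. H3K27me3 had the opposite arrangement. The crypts peak, chr9:88326266-88327108, was 843 bp wide and lay upstream of the start, over 162 of the 250 bases and 216 bp away from the H3K4me3 peak. The villi peak, chr9:88327433-88328839, was 1407 bp wide, lay inside the gene under H3K4me3 over its whole length, and shared no base with the peak of crypts. A score above 3.84% of the list made the H3K27me3 peak of crypts one of the weaker calls.

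Both H3K4me3 and H3K27me3 were therefore called in the windows of 2 members in each compartment, where 11.6% of all genes in crypts and 14.8% in villi had both. In bulk tissue, marks on the same base pairs can come from different cells. Ada, Nt5e and Dpp4 are also used by lymphocytes. Of 4 leukocyte markers, none had promoter H3K4me3 in crypts and 3 had it in villi, Ptprc with 1608 bp, Cd3e with 1181 bp and Cd8a with 829 bp, while Itgax had none. The part of such cells in the villi peaks of Ada, Nt5e and Dpp4 was not tested.

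H3K4me1 covered more base pairs in villi in some windows and fewer in others. The covered length was at least 1.5 times higher in villi at Lct, 2.18 times, and at Nt5e, 2.27 times, which is 2 of 10 members against 11.9% of all genes. At Nt5e this rested on single peaks of 432 and 981 bp. No member had at least 1.5 times more in crypts, against 12.6%, whereas with the top 50% of each list by score 3 members had. Values were lower in villi at Alpi, Sis, Krt20 and Ada, with ratios of 0.832, 0.941, 0.747 and 0.771. At Krt20 and Alpi this direction depended on the border of the window, since the whole lengths of the peaks that touched it summed to 9500 bp in crypts and 11398 bp in villi for Krt20, and to 6575 and 6711 bp for Alpi. The median log2 ratio of covered length was 0.23 for the members and 0.02 for all genes. For H3K4me3 the covered length was at least 1.5 times higher in villi at 5 members, Lct, Anpep, Dpp4, Ada and Nt5e, against 4.20% of genes, and with the top 50% of each list by score at 2.

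Inside the promoter H3K4me3 peak, the share of base pairs also under H3K4me1 was lower in villi in 7 of the 10 members, against 50.1% of all genes. It went from 76.0% in crypts to 33.1% in villi at Dpp4, from 67.2% to 22.9% at Ada, from 63.7% to 32.3% at Vil1 and from 55.3% to 23.7% at Nt5e. Krt20 went from 74.6% to 52.3%, Alpi from 100% to 72.4% and Sis from 27.4% to 17.7%. It was higher in villi at Lct and Anpep and 100% in both compartments at Treh, the member inside the broad H3K4me1 peak. The median over the members was 65.5% in crypts and 38.7% in villi, beside 52.5% and 49.3% over all genes. With the top 50% of each list by score it was lower in 2 members. A wider H3K4me3 peak can lower this share by itself. Over the union of the crypts and villi H3K4me3 peaks the share was again lower in villi in 7 members, with Anpep now lower, 76.5% and 65.9%, and Nt5e now higher, 10.4% and 23.7%.

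**Figure D3:**
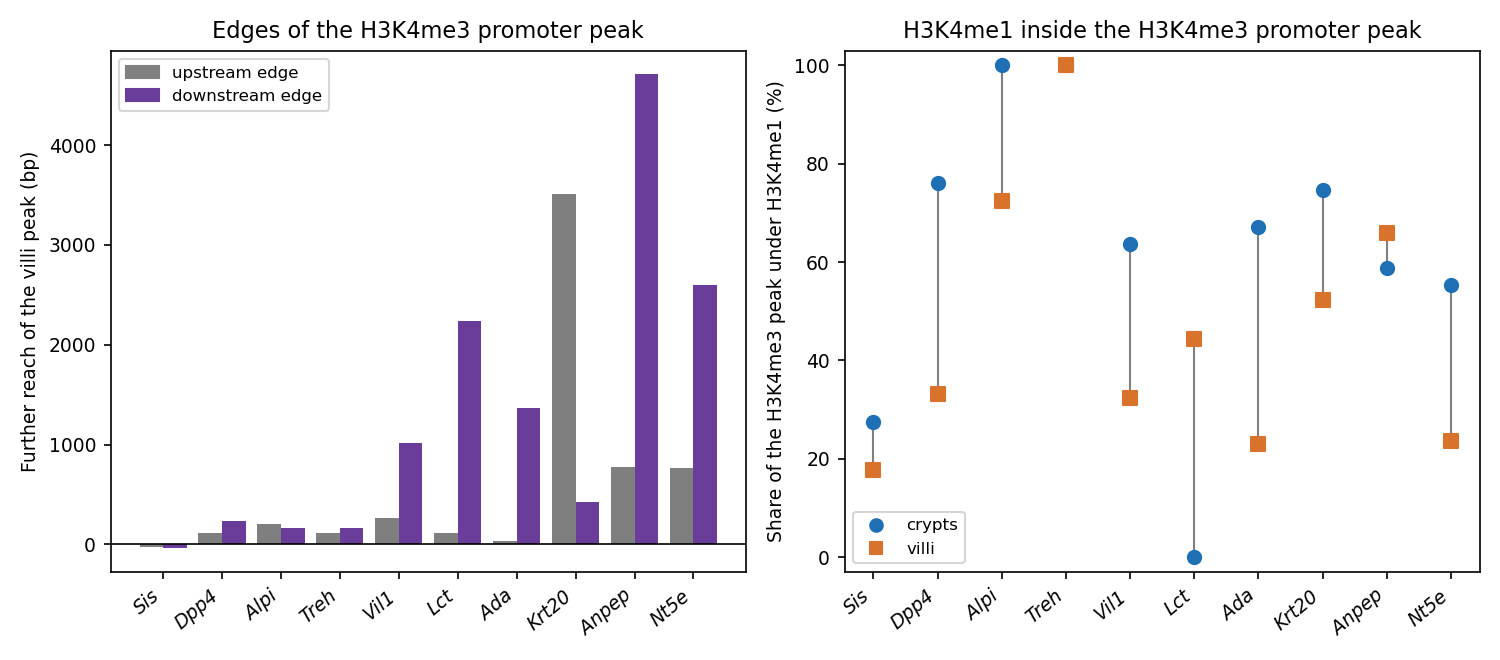
Left, the distance in bp by which the upstream and downstream edges of the H3K4me3 promoter peak lay further out in villi than in crypts, per gene. Right, the percent of that peak under H3K4me1 in crypts and in villi, where both points coincide at 100% for Treh. The downstream edge of Anpep gained 4708 bp and the upstream edge of Krt20 3510 bp, and the H3K4me1 share was lower in villi for 7 genes. The Krt20 distance leaves out a second crypts peak upstream of the start.

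Most H3K4me3 and H3K4me1 peaks over the members had a counterpart in the other compartment, counted at an overlap of 1 bp or more. For H3K4me3 this was 12 of 12 peaks of crypts (95% Wilson interval 75.8 to 100%) and 11 of 12 in villi (91.7%, 64.6 to 98.5%), beside 93.3% and 90.6% of the whole lists. For H3K4me1 it was 33 of 38 in crypts (86.8%, 72.7 to 94.2%) and 35 of 40 in villi (87.5%, 73.9 to 94.5%), beside 81.7% and 82.1%. With a reciprocal overlap of 50%, H3K4me1 was shared in 44.7% in crypts and 45.0% in villi. For H3K27me3 it was 1 of 2 peaks in each compartment, the one of Ada (interval 9.45 to 90.5%), beside 90.4% of the crypts list and 44.4% of the villi list. The intervals cover counting error only, and they hold the values of the whole lists. The summed whole length of the peaks over the members was 46121 bp of H3K4me3 in crypts and 66271 bp in villi from 12 peaks each. For H3K4me1 it was 112648 and 134668 bp. At the limit of the windows, the outermost peaks kept were H3K4me1 peaks 4824 bp upstream of Anpep in villi and 4779 bp in crypts, and the first ones left out were an H3K4me1 peak 5072 bp upstream of Alpi in crypts and one 5651 bp upstream of Sis in villi.

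The H3K9me3 lists were sparse, with 2126 peaks in crypts and 2089 in villi. Distances to the members are given without a background over all genes, so they are not a trait of the members. The nearest peak was 35151 bp from Alpi in villi, 74923 bp from Ada in crypts and 102776 bp from Vil1 in crypts. Around Sis no H3K9me3 peak was called within 9270044 bp in villi. The short H3K9me2 lists, 6 regions for crypts and 3 for villi, had 0 in the windows of the members.

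Other genes of the same functions were set beside the members. Of 16 further brush border hydrolase and absorption genes, 14 had an H3K4me3 peak at a start in crypts and 15 in villi. All 14 with a peak in both were wider in villi, 2 of them at least 1.5 times, Ggt1 (2796 and 5837 bp), a glutathione-cleaving enzyme, and Enpp3 (2289 and 3853 bp), a nucleotide pyrophosphatase. Their median log2 ratio was 0.33. Mgam, the maltase-glucoamylase gene that acts beside Sis, was 4404 bp in crypts and 4661 bp in villi. Akp3 had a start site peak in villi alone, and Tmprss15, the gene of enteropeptidase, had none.

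Among 16 genes of microvillus structure and epithelial keratins, 13 were wider in villi and 6 at least 1.5 times, with a median log2 ratio of 0.44. Tmigd1, an adhesion protein of enterocytes, went from 631 to 4025 bp, Slc9a3r1, a scaffold of the apical membrane, from 6057 to 13832 bp, Eps8, an actin regulator, from 3209 to 6810 bp and Pls1, an actin bundler like villin, from 3653 to 6826 bp. Krt19 was narrower in villi, 6672 and 4790 bp, unlike Krt20. Of 10 further genes of purine handling, 9 had a peak in both compartments. Only Slc28a2, a nucleoside transporter, was at least 1.5 times wider in villi, 410 and 1119 bp, and the median log2 ratio was 0.13. Ada and Nt5e had log2 ratios of 0.75 and 2.41.

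The labels were set against markers of the compartments. Of the 6 crypt stem and progenitor markers, 6 had promoter H3K4me3 in crypts and 5 in villi, and the 5 were all narrower in villi, with a median log2 ratio of −0.90. Mki67, a proliferation marker, was 4044 bp in crypts and 2166 bp in villi. None of 4 Paneth cell markers had promoter H3K4me3 in crypts, where these cells reside, and 1 had it in villi (Ang4, 982 bp). For 6 stroma and muscle markers the count was 1 in crypts and 2 in villi, and for 2 endothelial markers 0 in both. The members and the stem cell markers thus lay on opposite sides of the median of all genes.

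**Figure D4:**
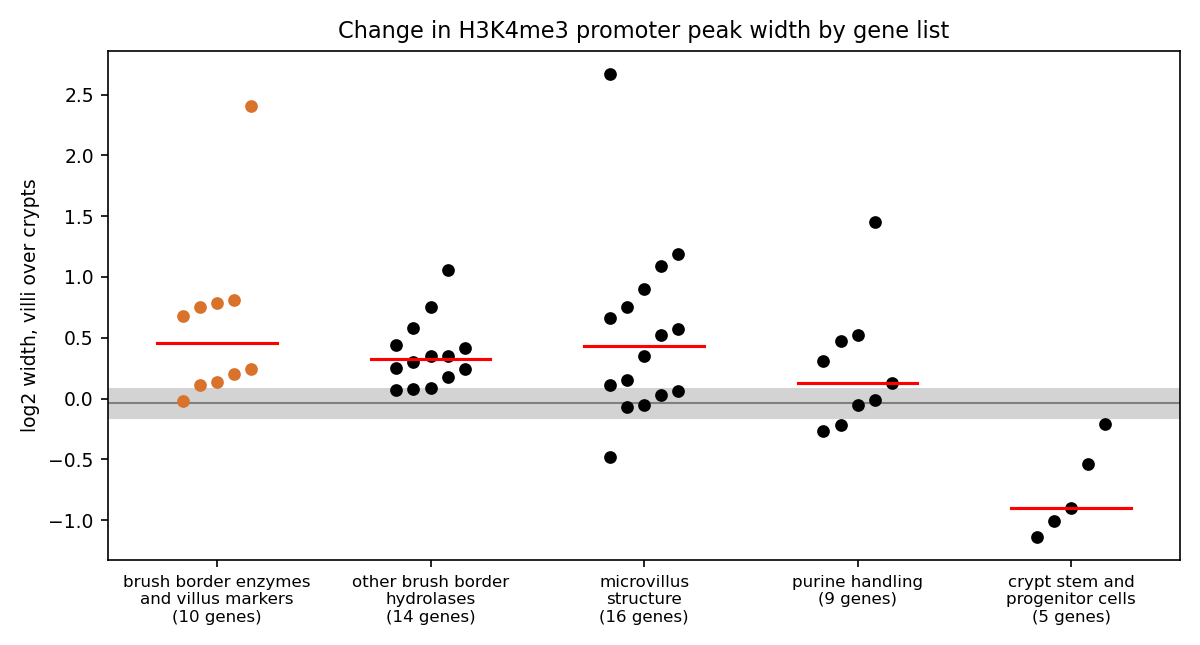
Log2 ratio of villi to crypts for the width of the H3K4me3 peak at the start site, 1 point per gene with a peak in both compartments, by gene list. Red bars are list medians, 0.46 for the 10 members, 0.33 for other hydrolases, 0.44 for microvillus structure, 0.13 for purine handling and −0.90 for crypt stem and progenitor markers, and the grey band spans the quartiles of all genes, −0.16 to 0.08.

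The genes most like the members were sought over the 8 lists by the base pairs covered within 5 kb of the outermost start, on the scale log2(1 + bp), as the Euclidean distance to the median of the 10 members. The closest 5 were Bcl2l1 (distance 0.132), Anks4b (0.196), Arhgef16 (0.211), Calm3 (0.218) and Atg2b (0.221). Bcl2l1 had 4005 bp of H3K4me3 in crypts and 4305 bp in villi, with 3647 and 2640 bp of H3K4me1. Of the members themselves, Dpp4 was closest to their median, at 0.478, followed by Sis at 0.931. Anpep was furthest, at 17.5, as its outermost start lacks H3K4me3, and Ada and Nt5e, with H3K27me3, were at 15.3 and 14.9.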

How the data were processed

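Chromatin of crypts and villi was immunoprecipitated by the authors with 5% of Drosophila chromatin, and the labels and the methods differ in the amounts used. According to the methods and the submitters' processing notes, the authors aligned reads to mm10 and dm6 (Bowtie 1.1.2), removed duplicates with samblaster and called peaks with MACS2 2.1.1 at a p-value of 1e-10, and deepTools 3.1 is listed. The deposited score, 10 or more throughout, was read as a −log10 p-value because of that threshold. A q-value cannot be told apart from it, and scores were compared only within a list. Each of the 10 lists comes from 1 library. The 2 inputs and the signal tracks were not used here.

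Peaks were set against GENCODE M21 genes in windows of 5 kb around the gene body and, for promoters, within 1 kb of a start site of a coding transcript. The width is that of the widest peak over a start site or, with none, of the nearest peak within 1 kb. Python 3.11.15, NumPy 2.4.6, SciPy 1.17.1 and Matplotlib 3.10.9 were used. The members, the gene lists and the 5 most alike genes follow rules chosen with earlier results of these data known. All 10 members are named, and genes of the lists are named as examples chosen after their values were seen. The H3K4me1 share inside H3K4me3 peaks, the reach of edges, the CpG counts and the alternatives for width were chosen after seeing the data. Other alternatives covered the window, the promoter distance, merging of peaks, the overlap rule and the top 50% of each list by score. A further leukocyte marker is not reported here.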

Additional observations from a re-analysis of the deposited data

How the results depend on the processing

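Of 107 values recomputed for 29 results, 89 stayed within 1.5 times the reported count or, for shares, within its Wilson interval, which allows changes such as 5 to 4. Some of the 89 could not move, such as H3K9me3 counts of 0 under stricter filters and counts of 10 members under wider windows. The total is therefore no measure of how firm the results are. With the top 50% of each list by score, promoter H3K4me3 remained called in 5 members in crypts (also 5 by window), promoter H3K4me1 in villi in 5, and H3K27me3 in 1 in each compartment, Ada in crypts and Nt5e in villi, by promoter and by window. The shared part became 62.5% for villi H3K4me3 and 0% for H3K27me3 in both compartments. Covered H3K4me3 at least 1.5 times higher in villi fell to 2 members, promoter peaks at least 1.5 times wider to 2, and a lower H3K4me1 share to 2, while H3K4me1 at least 1.5 times higher in crypts came to 3. For the widths the filter leaves fewer genes with a peak in both compartments, since 5 members had a crypts peak in the lower part of its list. Gene bodies alone gave H3K27me3 in 1 member in crypts, and promoters within 500 bp gave 1 in villi. A reciprocal overlap of 50% lowered shared H3K4me1 to 44.7% in crypts and 45.0% in villi, as this rule is stricter. With peaks under 1 kb apart merged, 4 of 10 members were at least 1.5 times wider in villi, as Krt20 dropped out. With the outermost start alone Anpep had no value. No paired analysis was possible because there was 1 library per group. The unknown depth limits weak peaks such as those of Nt5e in crypts.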
